A study of Drosophila melanogaster with 3 samples.

Results

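The peaks of CG32006-GFP at 10 Hippo growth control genes of Drosophila melanogaster (yki, wts, hpo, sav, ft, ds, fj, ex, Mer and sd) were examined by chromatin immunoprecipitation with sequencing (ChIP-seq), which maps where a protein sits on chromatin. A peak was assigned to a gene when its summit, the point of highest signal, lay in the gene body or within 5 kb of it (Ensembl annotation, build dm6). By that rule 50 of 11665 peaks belonged to 9 of the 10 genes, among 13945 protein-coding genes on 6 chromosome arms. All samples were of 1 kind. They were 3 biological replicates of pooled male and female prepupae, taken whole. The flies came from a transgenic line that stably expresses CG32006 with GFP joined to its C-terminus, and chromatin was pulled down with an antibody to GFP. No second condition was compared. The stage name was used in place of the labelled 48 days, since prepupae are far younger. RefSeq lists FoxJ1, a forkhead family name, as a synonym of CG32006 and calls its product uncharacterized. Whole animals were used, so a site occupied in few cells and a site weakly occupied in many cannot be told apart, and no expression was measured. Nothing here tests which gene responds to a peak.

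The Hippo pathway restrains growth of the imaginal discs and other tissues. The kinase Hippo (hpo) with its scaffold Salvador (sav) activates the kinase Warts (wts), which phosphorylates the coactivator Yorkie (yki) and keeps it out of the nucleus. In the nucleus Yorkie acts with the DNA-binding factor Scalloped (sd), the fly TEAD protein. The large cadherins Fat (ft) and Dachsous (ds) bind each other between neighbouring cells, with their affinity tuned by the Golgi kinase Four-jointed (fj), and feed into the pathway and into planar polarity. The membrane-associated FERM-domain proteins Expanded (ex) and Merlin (Mer) activate the kinase cascade, and ex is itself a known Yorkie target.

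The sequences below are those under the strongest peak that recurred in all 3 replicates at wts, ft, ds, ex and Mer, shown because they are the places where the signal at each gene was highest and repeated. Each runs 50 bases to either side of the summit on the plus strand of Release 6 (dm6), 5′ to 3′, and capitals mark its longest run of A and T. The windows are chr3R:30803909-30804009 for wts (an intron), chr2L:4222259-4222359 for ft (upstream), chr2L:715520-715620 for ds (upstream), chr2L:427493-427593 for ex (upstream) and chrX:19695357-19695457 for Mer (upstream).
wts: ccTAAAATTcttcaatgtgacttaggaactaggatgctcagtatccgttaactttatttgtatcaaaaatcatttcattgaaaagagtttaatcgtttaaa
ft: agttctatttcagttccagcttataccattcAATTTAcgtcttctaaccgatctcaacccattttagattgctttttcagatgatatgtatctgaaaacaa
ds: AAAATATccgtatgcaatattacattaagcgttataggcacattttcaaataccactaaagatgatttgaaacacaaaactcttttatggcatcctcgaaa
ex: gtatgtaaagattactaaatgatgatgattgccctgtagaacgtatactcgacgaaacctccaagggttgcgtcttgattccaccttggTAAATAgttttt
Mer: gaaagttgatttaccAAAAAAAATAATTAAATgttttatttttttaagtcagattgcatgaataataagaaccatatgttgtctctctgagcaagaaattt

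These windows were poor in G and C, with 28.7% GC at wts, 32.7% at ft, 30.7% at ds, 38.6% at ex and 23.8% at Mer. The longest A and T run was 17 bases at Mer, and 6 or 7 bases at the other 4 genes. At Mer the stronger peak is not the one shown, because it did not recur in replicate 2.

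Of the 8 windows of the same kind that hold the forkhead core TGTTTA on either strand, 1 each follows for ex, ds and wts, shown because the RefSeq synonym of CG32006 is a forkhead name. The core or its complement TAAACA is in capitals. They are chr2L:439461-439561 (ex, the third intron), chr2L:653983-654083 (ds, intron 5), and chr3R:30811345-30811445 (upstream of wts, inside an intron of cindr), all on the plus strand. In the last of them the core and its complement overlap as a palindrome.
ex intron: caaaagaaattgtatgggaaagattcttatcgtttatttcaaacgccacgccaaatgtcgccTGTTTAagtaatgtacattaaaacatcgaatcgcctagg
ds intron: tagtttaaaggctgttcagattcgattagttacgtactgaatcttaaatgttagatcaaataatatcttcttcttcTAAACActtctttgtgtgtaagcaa
wts upstream: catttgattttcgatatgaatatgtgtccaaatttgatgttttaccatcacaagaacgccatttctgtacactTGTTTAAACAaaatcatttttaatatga

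The 2 windows with the Scalloped and TEAD core CATTCC on either strand were both at ex, at chr2L:435594-435694 in the first intron and chr2L:428508-428608 upstream, and are shown because sd encodes the factor of that name. The core or its complement GGAATG is in capitals.
ex first intron: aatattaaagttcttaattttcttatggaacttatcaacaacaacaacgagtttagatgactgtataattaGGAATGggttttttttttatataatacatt
ex upstream: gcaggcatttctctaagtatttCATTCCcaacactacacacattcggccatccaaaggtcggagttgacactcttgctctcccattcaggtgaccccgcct

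Nearly all of the 10 genes had a peak, but most of the peaks stood at 3 of them. Within the gene body or 5 kb, 9 of 10 Hippo genes had an optimal peak, against 54.1% of all protein-coding genes. By gene length the counts were 6 of 7 Hippo genes with a span under 20 kb, against 51.7% of all such genes, and 3 of 3 with a span of at least 20 kb, against 85.3%. A peak that recurred in all 3 replicates was present at 9 of 10, against 45.0% of all genes. A peak recurred in a replicate when its summit lay inside one of the 11665 strongest regions of that replicate's own list. The replicates' own lists gave 52, 50 and 51 peaks at the 10 genes (51 ± 1, SD, n = 3), covering 10, 9 and 9 genes. The optimal list was made from the same reads, so recurrence is not an independent repeat.

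The genes ds, ex and wts held 37 of the 50 peaks (74%). The 20 peaks of ds exceeded the number at 99.7% of protein-coding genes, the 9 of ex that at 97.9% and the 8 of wts that at 97.2%. All 3 are long genes, with spans of 74971 bp for ds, 17475 bp for ex and 16995 bp for wts. The marks of 8 peaks and 15 kb used next were chosen after the counts and spans were seen, and describe where these genes stand. At least 8 peaks were found at 3 of 10 Hippo genes, against 2.82% of all genes. Among genes with a span of 15 kb or more, they were found at 3 of 5 Hippo genes, against 25.0% of all genes. The remaining 2 long genes, sd and ft, had 3 and 2 peaks over spans of 23313 and 23393 bp. Per 10 kb of span and flanks there were 3.28 peaks at ex, 2.96 at wts and 2.35 at ds, and 0.901 at sd and 0.599 at ft. The median was 0.588 for all protein-coding genes and 0.845 for those with a span of 15 kb or more. The median gap between neighbouring summits was 3081 bp at ds, 1625 bp at ex and 1154 bp at wts, and the widest gap at ds was 16029 bp. The other 7 genes together had 13 peaks.

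**Figure D1:**
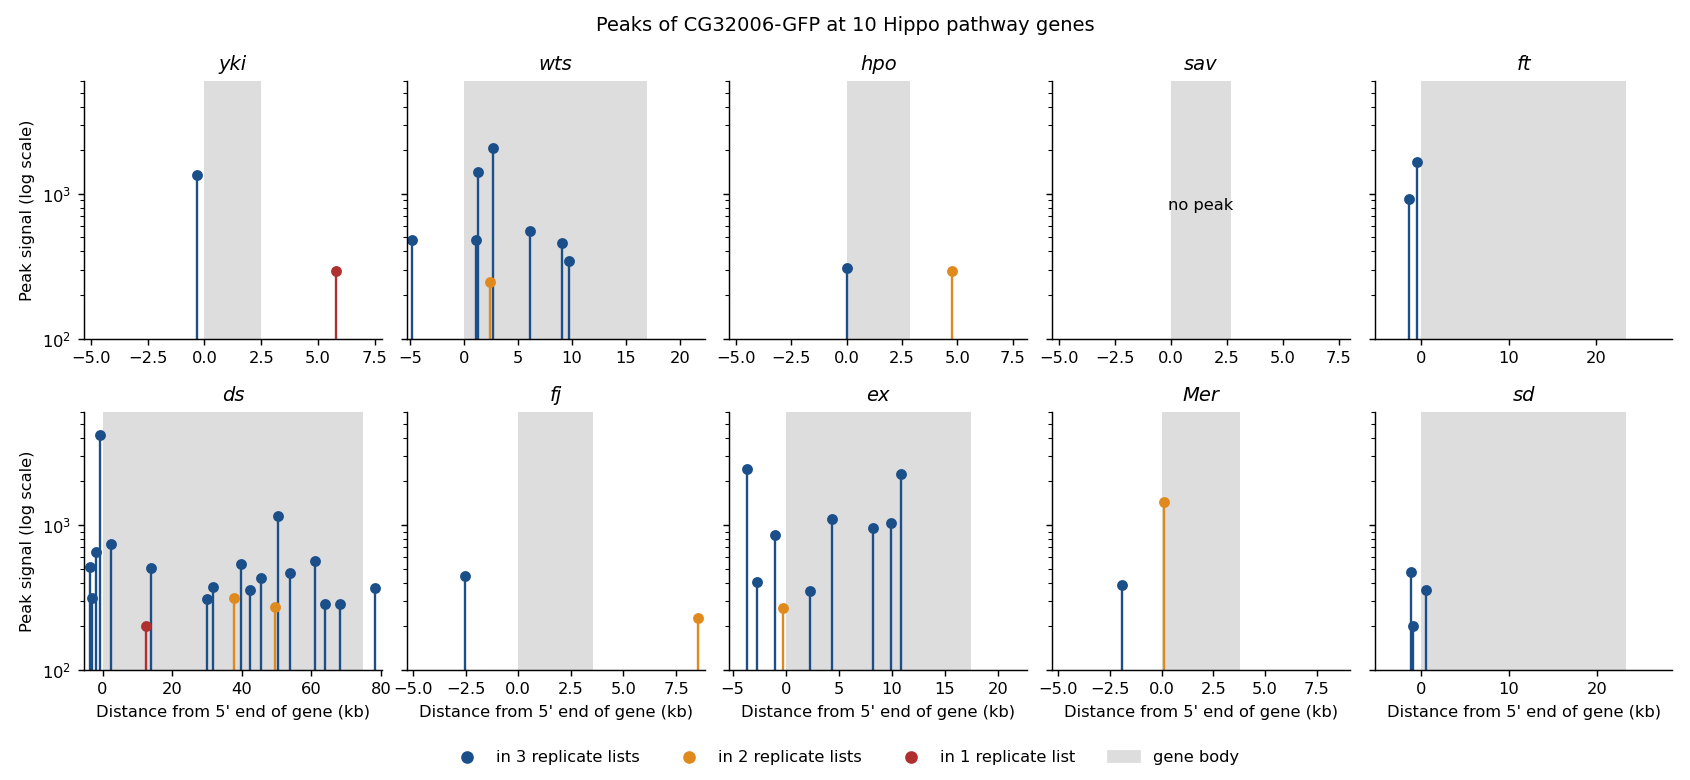
Optimal peaks at the 10 Hippo genes, with distance from the gene's 5′ end in kb along the x axis and the deposited peak signal on a log y axis; grey marks the gene body and colour the number of replicate lists in which the peak recurred. The peaks of ds spread over its whole length, those of ft stand only upstream, and sav has none.

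**Figure D2:**
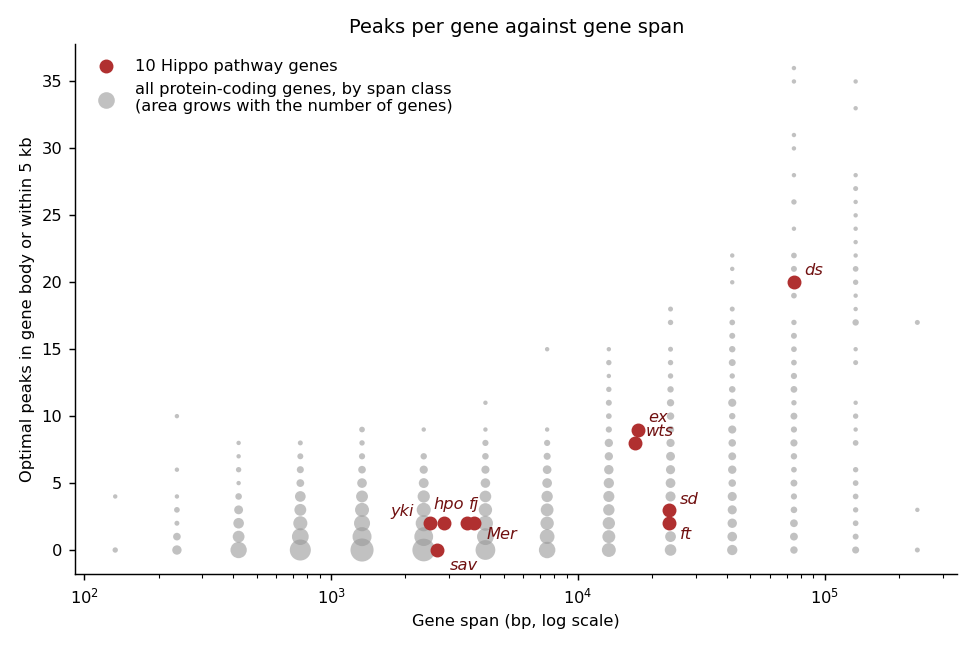
Optimal peaks per gene against gene span in bp (log x axis) for the 10 Hippo genes (red) and for all protein-coding genes grouped by span (grey, larger where more genes fall). Among the Hippo genes ds stands at 20 peaks, while ft and sd, with spans of 23393 and 23313 bp, have 2 and 3.

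The cadherin genes differed in layout. ds (FBgn0284247) runs from 640013 to 714983 on the minus strand of 2L. It carried the strongest peak of all 50, at 2L 715333 to 715813, with its summit 587 bp upstream of the start site. Its signal of 4192 ranked 106 of 11665 optimal peaks. The same place had a signal of 1230 in replicate 1, 1536 in replicate 2 and 1422 in replicate 3, at ranks 106, 93 and 139 of 30000 listed regions. All 3 replicates thus placed it near the top of their lists. A further 3 summits lay 1811, 2927 and 3699 bp upstream, with signals of 646, 312 and 511. Inside ds there were 15 summits, all in introns, and 11 of them in the second intron, which spans 48486 bp. The strongest inside was 50480 bp from the start site, with an optimal signal of 1156 and replicate signals of 278, 408 and 455. Signals of the other 10 in that intron ran from 199 to 538, and the weakest of them recurred in replicate 2 alone. Of the 20 ds peaks, 17 recurred in all 3 replicates. For 8 of the 20 summits, the start site of CG2839 was nearer than that of ds.

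ft (FBgn0001075, 2L 4198404 to 4221796, minus strand) had both of its peaks upstream and none in its body. The first, at 2L 4222020 to 4222522, had its summit 513 bp from the start site and a signal of 1650. Its replicate signals were 493, 575 and 614, at ranks 1001, 1048 and 1012. The second lay 1326 bp upstream with a signal of 919 and replicate signals of 254, 335 and 319. Both recurred in all 3 replicates. Coding sequence makes up 66.0% of the ft body and introns 28.0%, against 14.2% and 83.4% of ds. Of the 50 summits, 0 lay in coding sequence. Introns make up 65.9% of wts and 61.8% of ex, which had 7 and 5 summits inside, and also 62.4% of sd, which had 1.

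fj (FBgn0000658, 2R 18232761 to 18236311, plus strand), which encodes the kinase that modifies both cadherins, had 2 peaks and none in its body. One stood 2525 bp upstream with a signal of 445 and replicate signals of 156, 168 and 121, in an exon of the non-coding gene lncRNA:CR45311, and the start site of CG46388 was nearer, at 1329 bp. The other had a signal of 228 and did not recur in replicate 2. Its summit was 4998 bp past the gene end, barely inside the limit of 5 kb. The nearest summit beyond that limit at any of the 10 genes was 5322 bp from hpo, with a signal of 355.

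ex (FBgn0004583, 2L 431227 to 448701, plus strand) had 4 peaks upstream and 5 in introns. The median signal of the 9 was 951 and their median percentile among all optimal peaks 78.9. The strongest, at 2L 427294 to 427760, was 3684 bp upstream with a signal of 2443, and had 716, 917 and 798 in replicates 1, 2 and 3. The next, at 2L 441893 to 442310, lay in the third intron with a signal of 2231, and had 626, 826 and 794. The start site of crq, a scavenger receptor gene, was nearer to it, at 9178 bp, than that of ex. Together with summits of 951 and 1034, it made a group of 3 in that intron. The ex promoter itself had a weak peak, 231 bp upstream, with a signal of 268 and replicate signals of 112, 91.3 and 52.3, and replicate 3 did not hold it among its 11665 strongest. The other 8 recurred in all 3 replicates.

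Mer (FBgn0086384, X 19689697 to 19693500, minus strand) had its strong peak inside the first intron, 110 bp from the start site, at X 19693197 to 19693571. The signal was 1445, at rank 1313 of the optimal list, with 383 in replicate 1 and 532 in replicate 3. Replicate 2 had no region there among its 30000. Among the 1313 optimal peaks at least as strong, 27 had no region in replicate 2, against 1 in replicate 1 and 1 in replicate 3, and 15 of the 27 lay within 500 bp of a start site, against 525 of the 1313. Replicate 2 listed 9587 regions with a −log10 q of at least 2, against 14910 in replicate 1 and 17614 in replicate 3. The part of this difference in the missing Mer region was not tested. The other Mer peak, 1907 bp upstream, recurred in all 3 with a signal of 383. Its summit fell in an annotated transposable element of the Tc1 family, and the start site of CG14229 was 157 bp away.

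Of the kinase genes, wts had 8 peaks, hpo 2 and the scaffold gene sav 0. wts (FBgn0011739) runs from 30789625 to 30806619 on the minus strand of 3R. Its strongest peak, at 3R 30803684 to 30804241, lay in its first intron, 2660 bp from the start site, with a signal of 2075. Its replicate signals were 640, 697 and 748, at ranks 598, 732 and 681. A second in that intron, 1299 bp from the start site, had a signal of 1412 and replicate signals of 402, 440 and 595. Each of these 2 regions is listed a second time with another summit, of signal 244 in the stronger region and 478 in the other, so the first intron of 5324 bp held 4 summits in 2 regions. With repeated coordinates counted once, the 50 peaks are 48 regions. Toward the other end, 2 summits lay in the second intron and 1 in the 5′ UTR of the second exon, with signals of 346, 455 and 549. The 1 upstream summit, 4776 bp away with a signal of 482, was in an intron of cindr, an adaptor protein gene, whose start site was nearer at 2778 bp. All but 1 of the 8 recurred in all 3 replicates. The exception was the summit of signal 244, at 3R 30804166. Replicate 2 listed a second summit there too, with a signal of 134, but its region (3R 30803729 to 30804164) ended just short of the optimal summit.

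hpo (FBgn0261456, 2R 19493996 to 19496856, minus strand) had a weak peak 5 bp from its start site, at 2R 19496626 to 19497095. The signal was 309, with 85.4, 120 and 99.8 in the replicates, and the peak recurred in all 3. The other, 1902 bp past the gene end, was 7 bp from the start site of Rep, a Rab escort protein gene. It had a signal of 293 and no region in replicate 2. Replicate 3 also listed a stronger region, 2R 19491759 to 19491967 with a signal of 247 at rank 3887, which ended short of that summit. sav (FBgn0053193, 3R 23058609 to 23061304, minus strand) had no optimal peak within 5 kb. Regions near sav were listed in replicate 1 alone, with signals of 107, 75.7 and 30.8 at ranks 7351, 10024 and 20077. The second of them covered the sav start site. The pooled list, replicate 2 and replicate 3 had 0 regions there, so sav had no region listed in more than 1 replicate.

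For the nuclear pair, yki had a strong peak just upstream, in the neighbouring gene Gpat4, and sd had weaker ones. yki (FBgn0034970) runs from 24065975 to 24068485 on the minus strand of 2R. Its strong peak, at 2R 24068681 to 24069017, had its summit 340 bp upstream of yki. That summit lay in the 5′ UTR of Gpat4, which encodes an acyltransferase of lipid synthesis, 68 bp from the Gpat4 start site. The signal of this peak was 1346, with 360, 483 and 513 in the replicates, at ranks 1700, 1409 and 1407. The other yki peak, 3283 bp past the gene end, was 261 bp from the start site of RpL39, which encodes a ribosomal protein, and recurred in replicate 3 alone with an optimal signal of 294. sd (FBgn0003345, X 15804370 to 15827682, plus strand) had 3 peaks. Signals of 470 and 202 stood 1154 and 951 bp upstream, nearer to the start site of PGRP-LE, an immune recognition gene, at 247 and 450 bp. They fell in the same region of each replicate, with signals of 137, 81.4 and 119. Replicate 3 also listed a stronger region, X 15803012 to 15803207 with a signal of 188, which ended just short of both summits. The third, with a signal of 355, lay 543 bp from the closest of 7 sd start sites and had 95.9, 99.9 and 151 in the replicates.

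**Figure D3:**
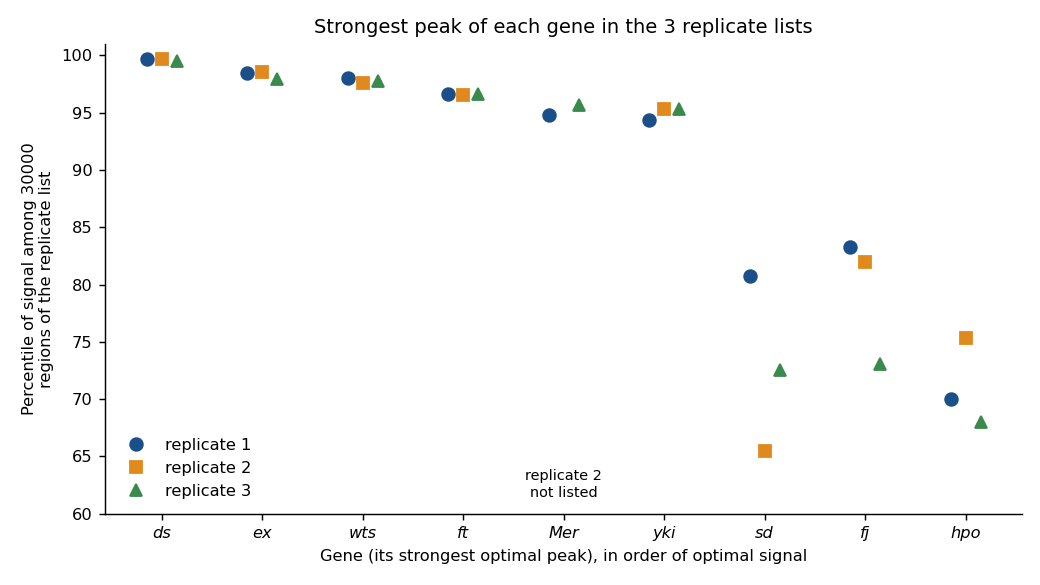
Percentile of the strongest optimal peak of each Hippo gene among the 30000 regions of each replicate list, on the y axis, with genes ordered by optimal signal on the x axis. The points of ds, ex, wts, ft and yki lie close together, none under 94.3, while those of sd, fj and hpo lie lower and spread more, and Mer has no point for replicate 2.

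The order of genes by strongest signal was ds, ex, wts, ft, Mer, yki, sd, fj and hpo. At these strongest optimal peaks ds ranked first in every replicate, and ex and wts came next in that order. The replicate ranks of ft (1001 to 1048) did not overlap those of yki (1407 to 1700) or of wts (598 to 732). Mer (1552 and 1298) and yki did overlap. Of the lowest 3 genes, fj stood highest at this peak in replicates 1, 2 and 3 (ranks 5020, 5399 and 8082). In the optimal list sd came before it. By the same peaks sd was ahead of hpo in replicate 1 (ranks 5768 and 9001) and replicate 3 (8225 and 9607). It was behind hpo in replicate 2 (10345 and 7401). At these peaks the order of sd and hpo is within the spread of the replicates. The replicate 3 rank of sd leaves out a region of rank 5241 that ended just short of the summit. By strongest listed region within 5 kb, hpo ranked 5539, 7401 and 3887 in replicates 1, 2 and 3, and sd 5768, 8666 and 5241. By that measure hpo was ahead of sd in every replicate, and fj was behind both in replicate 3.

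Introns of any gene held 30 of the 50 summits (60%), against 62.6% of all optimal summits. Coding sequence held 0 of 50, against 0.497%. Of the 50, 29 were in the body of the gene, 17 upstream and 4 downstream. Introns of the gene itself held 28, and 9 of these were in a first intron. Only 4 of 50 (8%) were within 500 bp of a start site of their own gene, at yki, hpo, ex and Mer. Counted by gene, that is 4 of 10, against 19.1% of all protein-coding genes. Counting start sites of any gene, 9 of 50 (18%) were that near, against 22.9% of all optimal peaks. The nearest start site belonged to another gene for 17 of the 50. No summit lay inside the body of 5 of 10 Hippo genes, against 82.9% of all genes. Among genes with a span of at least 20 kb that held for 1 of 3 Hippo genes (ft), against 23.1% of all.

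In strength the 50 peaks ran from 199 to 4192, and all 11665 from 197 to 10303. Their median signal was 460, against 443 for all 11665, at a median percentile of 51.8. Among the 11665 strongest regions of replicates 1, 2 and 3 the overlapping regions had a median percentile of 52.5, 57.2 and 51.9. A signal of at least 1000 was reached by 11 of the 50 (22%), against 19.8% of all. Recurrence in all 3 replicates was found for 41 of 50 (82%), against 73.6% of all optimal peaks. By replicate, 47, 45 and 47 of the 50 recurred. Of the 9 Hippo peaks near a start site of any gene, 8, 6 and 8 recurred in replicates 1, 2 and 3. Over all 2676 such peaks the shares were 90.7%, 84.2% and 90.2%.

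Low GC content was found at most of the 50 summits. Windows of 50 bp to either side of the summit averaged 34.0% ± 7.61 GC (SD over peaks), and the mean of such windows 500 bp away on both sides was 45.0% ± 5.55, a difference of -10.95 percentage points. Taken at the summits of the replicates' own lists the difference was -11.5, -10.3 and -10.5. Over all optimal peaks it was -10.8. The summit was the lower of the pair in 43 of 50 (86%), against 83.5% of all. At ds the difference was -14.8 with 19 of 20 summits lower, and at ft -20.3 with both lower. At ex it was -6.60 with a summit GC of 38.4%.

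**Figure D4:**
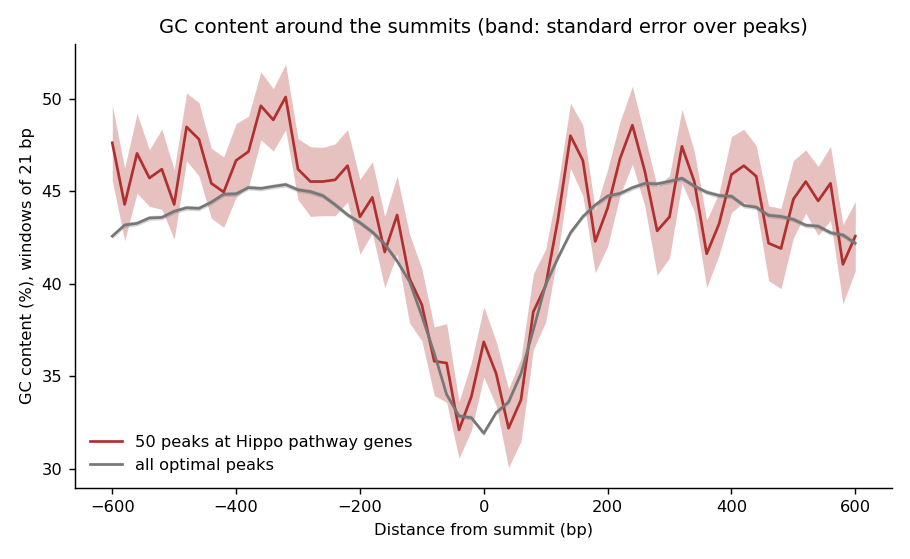
Mean GC content in windows of 21 bp against distance from the summit in bp, for the 50 Hippo peaks (red) and all optimal peaks (grey), with bands of 1 standard error over peaks. At the summit itself the Hippo peaks stand at 36.9% and all peaks at 31.9%, and 40 bp to its left at 32.1% and 32.9%; both curves are higher in the flanks, and the band of the 50 peaks is the wider.

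Short motifs were counted in the same windows on both strands. The forkhead core TGTTTA was in 8 of 50 windows (16%), against 13.6% of all 11665. The Scalloped and TEAD core CATTCC was in 2 (4%), against 3.33%. The GAGA factor motif GAGAG was in 4 (8%), against 9.56%, and the CA repeat CACACA in 4 (8%), against 6.59%. The homeodomain motif TAATTA was in 7 (14%), against 10.6%, and a run of AAAAAA in 10 (20%), against 29.3%. None of the 9 motifs contains another, although neighbouring hits can share bases. The GATA motif TGATAA was in 1 (2%), against 9.52%, the BEAF-32 motif TCGATA in 1 (2%), against 3.73%, and the AP-1 motif TGACTCA in 2 (4%), against 0.832%. Counts this small allow no order between motifs. The strongest recurring peaks of wts, ft, ds and ex held none of the 9 motifs, which says only that those letters are not in these windows.

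Other genes of the pathway were read from a list of 42, all protein-coding but for mir-ban, of which 32 had a peak (76.2%), against 54.1% of all protein-coding genes. A peak recurring in all 3 replicates was present at 30 of 42, against 45.0% of all protein-coding genes. One within 500 bp of a start site was present at 15 of 42, against 19.1%. The 15 include mir-ban, with its start taken from an annotated span of 81 bp. The list leans to long genes, with 14 of 42 having a span of at least 20 kb, against 1013 of 13945. The 42 genes held 220 optimal peaks, and the replicates' own lists gave them 228, 224 and 223. Of 13 upstream regulators 10 had a peak, of 12 genes of the kinase cassette and its regulators 8, of 7 nuclear partners 4, and of 10 targets 10. The groups differ in length, with a span of at least 20 kb for 4, 3, 1 and 6 genes in that order. Of all protein-coding genes, 85.3% of those that long had a peak, and 51.7% of the shorter ones. Whether the groups differ beyond length was not tested.

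The 8 genes of that list with the strongest recurring peak included 4 targets, 3 upstream regulators and 1 kinase gene. Myc, which encodes a growth-promoting transcription factor, had a signal of 3495 inside the gene. ed, which encodes an adhesion protein, had 3337 at 722 bp upstream and 21 peaks in all. kibra, whose product works with Expanded and Merlin, had 3254 inside the gene and 14 peaks. The bantam microRNA gene (mir-ban), a Yorkie target that promotes growth, had 3083 at 2103 bp from the closest start in its annotated span of 81 bp. E2f1, which encodes a cell cycle transcription factor, had 2808 and vn, an EGFR ligand gene, 2448. msn, which encodes a kinase that can act on Warts, had 2208, and Fbxl7, an F-box gene of the Fat branch, 2001. The replicates' own lists held 6, 4 and 6 peaks at Myc, 20, 22 and 20 at ed, 17, 13 and 12 at kibra, and 5 in each replicate at mir-ban.

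The 10 genes of that list without a peak were Schip1, Pez, lft, mats, Zyx, Mob4, Slmap, Wbp2, mask and tsh. mats encodes the cofactor of Warts, and Slmap and Mob4 encode parts of the STRIPAK phosphatase complex. Of other genes of that complex in the list, Cka had 2 peaks, 1 of them recurring in all 3 replicates, and Strip had 1 that did not. Of the core kinase cassette, mats and sav had 0 peaks, hpo 2 and wts 8. All genes with a span under 20 kb had a median of 1 peak and a mean of 1.16. The spans are 2861 bp for hpo, 2696 bp for sav, 2142 bp for mats and 16995 bp for wts.

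**Figure D5:**
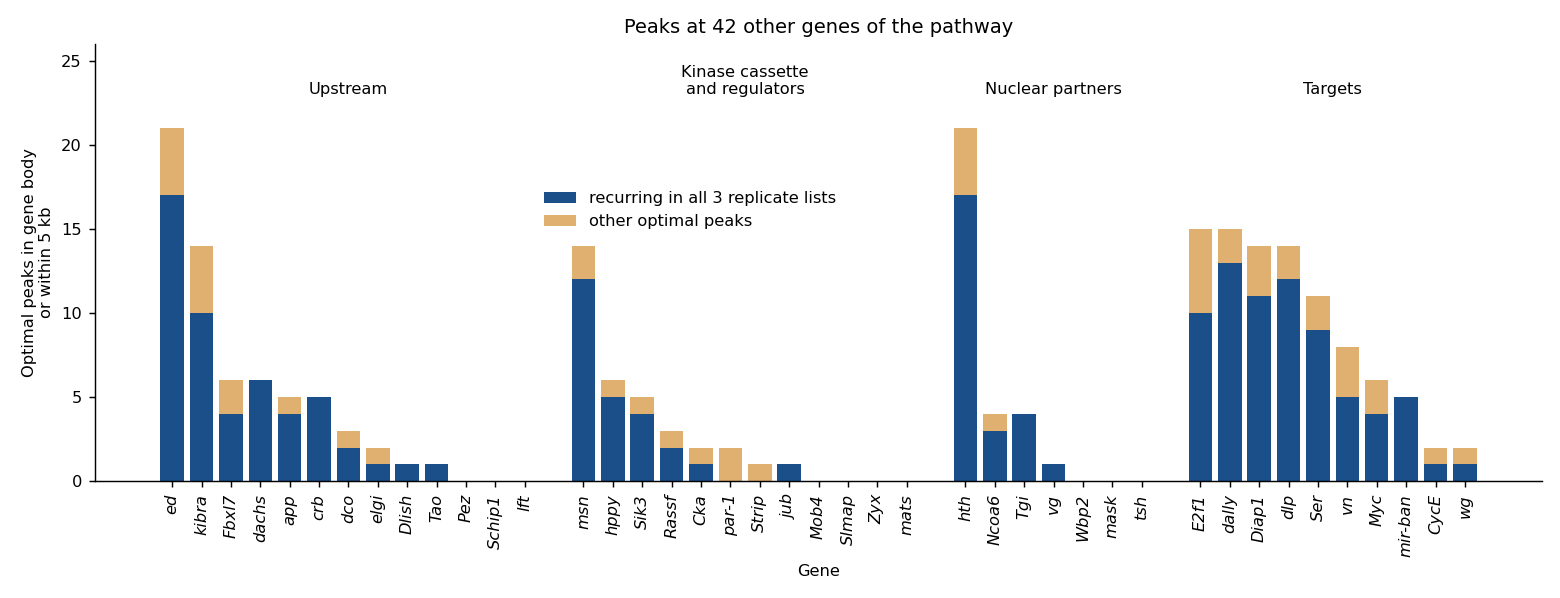
Optimal peaks per gene (y axis) at 42 other genes of the pathway in 4 groups along the x axis, with the part recurring in all 3 replicate lists in blue and the rest in tan. All 10 targets have a peak, and 10 genes of the other groups have none.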

How the data were processed

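The submitters deposited peak lists in narrowPeak form for 3 replicates, each of 30000 peaks and background regions called against a control alignment, a pooled list, and an optimal list of 11665 rows kept after a comparison by irreproducible discovery rate (IDR), per the deposited notes. The sources used here do not name the aligner, the peak caller, the IDR cut-off or the read depth. The peak signal is the authors' deposited value on an unstated scale, and it ranks peaks inside 1 list only. The deposited −log10 q entered a count of regions per replicate and 1 alternative. A control was not analysed here, and lists in dm3 were not used. As the optimal list pools the replicates, its signals have no error. Intervals were not computed.

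Coordinates count from 1 in dm6, with Ensembl release 115 genes and the Release 6 sequence from RefSeq. The summit was the start plus the deposited offset, and 9 of 11665 offsets past the peak end (0 at the 10 genes) were set to the last base. Recurrence used each replicate's 11665 strongest regions. With 1 group there was no test: counts and medians are set beside those of all peaks or genes. Of the wider list, all 42 genes matched, dachs, Diap1 and mir-ban through RefSeq synonyms. The genes, the wider list and the 9 motifs were chosen with earlier results of these data known. Named from the wider list were the 8 genes with the strongest recurring peak, those with none and, beside Slmap and Mob4, Cka and Strip. Any gene with a start site nearer to a summit than that of the Hippo gene was also named. Alternatives varied the distance, the threshold, the overlap rule, the windows and the replicates. Python 3.11.15, numpy 2.4.6 and pandas 2.3.3 were used, and the counting was tested on simulated peaks. Sequences are shown for a few of the 50 peaks, and 1 more that the rule would show is not reported here.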

Additional observations from a re-analysis of the deposited data

How the results depend on the processing

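The 50 peaks at the Hippo genes became 29 in gene bodies alone, 27 with the strongest 50% of the peaks and 33 when each summit went to its nearest start site, and they numbered 41 within 2 kb and 71 within 10 kb. Genes with a peak numbered 5 of 10 in gene bodies alone and 10 of 10 within 10 kb. Requiring the other pair of replicates, without each replicate in turn, left 42 to 45 peaks at 9 genes. Recurrence in all 3 replicates was 82% as reported, 92% with whole replicate lists and 56% with a reciprocal overlap of 50%, and recurrence in the remaining pair was 84 to 90% without each replicate in turn. The share near a start site was 4% within 200 bp, 16% within 1000 bp and 18% for start sites of any gene. The median percentile was 57.2 among the 11665 strongest regions of replicate 2, against 51.8 in the optimal list. The GC difference was -9.76 in windows of 100 bp to either side, -11.9 at peaks recurring in all 3 replicates and -10.3 at the summits of replicate 2, and its sign did not change. The causes were not tested. No paired analysis was possible because there was only 1 group. Read depth is unknown, so a gene without a peak, such as sav, was not shown to be unbound.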

Other observations

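Between 5 and 10 kb from the gene, peaks were stronger than any inside 5 kb at some of the genes and weaker at others. At 7855 bp from wts a peak (3R 30781564 to 30781990) had a signal of 2478 and recurred in all 3 replicates, above the 2075 of the strongest wts peak within the limit. For fj, whose strongest peak within the limit had 445, peaks of 768, 1033 and 1579 stood 5826, 7714 and 7778 bp away, each recurring in all 3 replicates. For sav, a peak of 2350 recurring in all 3 replicates lay 9796 bp away, and for hpo the strongest had 355, against 309 inside 5 kb. At ds, ex and yki the strongest had 420, 281 and 297, below the 4192, 2443 and 1346 inside 5 kb, and ft, Mer and sd had none. Within 10 kb there were 13 peaks at wts, 6 at fj and 4 at sav. Whether these sites act on the Hippo genes or on neighbours was not tested.

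The pooled list held 53 regions below the optimal threshold at the 10 genes, 20 of them at ds, 9 at wts and 8 at fj. They outnumbered the optimal peaks at fj (8 against 2), ft (4 against 2), sd (4 against 3) and wts (9 against 8), and not at the other genes.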
